A study of Mus musculus with 9 samples.

Results

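Transcripts of the proteasome, the protease complex that degrades ubiquitin-tagged proteins, were examined in the tibialis anterior, a fast-twitch muscle at the front of the shin. The genes were chosen by symbol: every listed gene whose name begins with Psma, Psmb, Psmc, Psmd, Psme, Psmf or Psmg followed by a digit. This took 49 of the 14971 protein-coding genes listed. They comprise 8 genes of the 20S alpha ring, 7 of the standard 20S beta ring, 3 inducible beta genes, 6 ATPases, 3 other base genes and 8 lid genes of the 19S regulatory particle, 3 chaperones of 19S assembly, 5 genes of activator proteins, the inhibitor gene Psmf1, 4 chaperones of 20S assembly, and Psmc3ip, which shares a prefix but is no proteasome subunit. All mice were males of the C57BL/6J strain, whose age the labels used here do not give. One group was control, one had been orchiectomized (ORX, testes removed), and one had been orchiectomized and given dihydrotestosterone (ORX+DHT), a potent androgen. Muscles were taken 4 weeks after treatment, and each group had 3 libraries labelled as biological replicates, 9 in all. Below, the orchiectomy contrast is ORX minus control, the androgen contrast is ORX+DHT minus ORX, and the replacement contrast is ORX+DHT minus control. Every fold change is given on the log2 scale.

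The 20S core particle is a barrel of stacked rings. Its outer alpha rings gate the entry, and its inner beta rings carry the proteolytic sites, on the products of Psmb5, Psmb6 and Psmb7. The 19S regulatory particle caps the barrel: its base holds the AAA ATPases that unfold substrates, and its lid, which holds the deubiquitinase encoded by Psmd14, removes ubiquitin before entry. Interferon induces alternative catalytic subunits, encoded by Psmb8, Psmb9 and Psmb10, that change the peptides produced. In skeletal muscle the proteasome degrades myofibrillar and regulatory proteins tagged by ubiquitin ligases such as those encoded by Trim63 and Fbxo32, and several of its genes are known to be transcribed more under the transcription factor NRF1 (encoded by Nfe2l1) when proteasome capacity is short.

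Between 1340209 and 1682235 reads per library fell in the listed genes, and the values below are normalized counts, reads divided by a scaling factor of each library, on a scale joined over all 9 libraries. Markers of fast fibres were abundant, each of 8 standing at 8841 or more in every library. One control library, control 1, stood apart for proteasome genes. Of the 42 proteasome genes with a mean of at least 10, control 1 was the highest of the 3 controls for 35 and the highest of all 9 libraries for 32. The median log2 difference between control 1 and the mean of controls 2 and 3 was 0.55 over these 42 genes and 0.0057 over 8631 genes. This difference moved with exon length. With all genes split by summed exon length into 3 classes of like size, its median was 0.40 in the shortest class (up to 3.68 kb), -0.040 in the middle class and -0.31 in the longest class (over 6.37 kb). Of the 42 proteasome genes, 31 lay in the shortest class, where their median was 0.60 and 30 of 31 were above 0. The middle class held 5, with a median of 0.55, and the longest class 6, with a median of 0.0069. In each class the median of the proteasome genes lay above that of all genes. Where the fold change of a proteasome gene against control is given below, its value without control 1 follows.

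**Figure D1:**
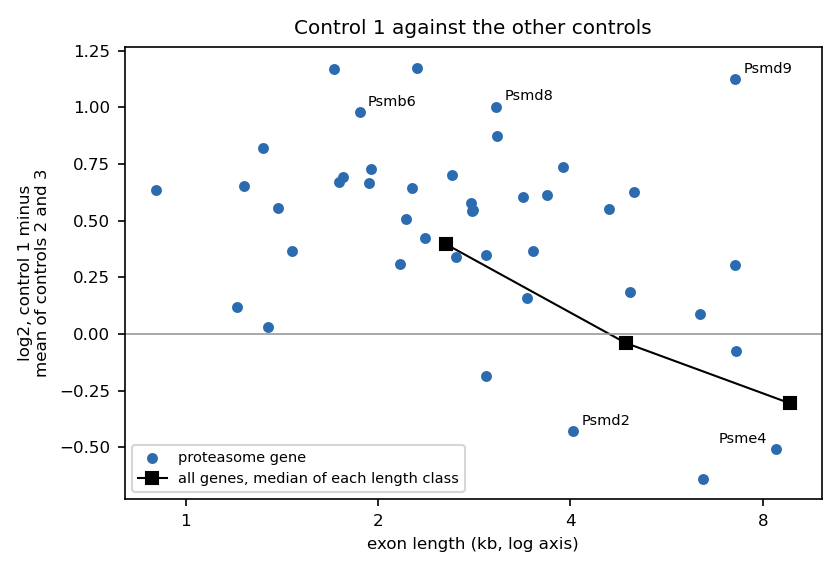
Difference between control 1 and the mean of controls 2 and 3 (log2 of normalized counts + 1, vertical axis) against summed exon length (kb, log axis) for 42 proteasome genes (blue points), with the median of all 8631 genes in each of 3 length classes (black squares). The proteasome genes lie mostly at short lengths and above 0, with medians of 0.60, 0.55 and 0.0069 from the shortest to the longest class. Psme4, the longest gene, lies below 0.

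By level, the subunits of the particle itself were abundant. Levels were compared between genes as normalized counts per kilobase of exon, the mean over 9 libraries. The length is that of all annotated exons of a gene joined, not of the transcript expressed, so the order of genes depends on annotation. Psmb1, for example, had a mean of 136 counts over 4.595 kb, and Psmb2 one of 85.2 over 1.204 kb. Setting aside Psma8, the 31 subunits of the 20S and 19S particles each stood above at least 76.7% of the 8631 genes with a mean of at least 10, whose median was 9.17 per kilobase. Psma6, of the alpha ring, was the highest of all proteasome genes at 147 per kilobase, ahead of the ATPase gene Psmc5 at 141. In the standard beta ring, levels per kilobase ran from 29.7 for Psmb1 to 111 for Psmb4. The 3 catalytic genes of that ring stood at 84.05 (Psmb5), 99.8 (Psmb6) and 51.4 (Psmb7). Among the ATPases the lowest was Psmc2 at 38.8. In the rest of the base, Psmd2, which binds shuttle factors, was highest at 116 and Psmd1, for the other large scaffold subunit, lowest at 38.7. In the lid, the highest was Psmd7 at 114, which encodes the partner of the deubiquitinase, and the lowest Psmd11 at 23.9.

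Chaperones, inhibitor and inducible subunits were scarce. The levels per kilobase of the 19S chaperones ran from 4.04 (Psmd5) over 5.20 (Psmd9) to 11.8 (Psmd10), and those of the 20S chaperones from 2.14 (Psmg3) over 8.19 (Psmg1) and 9.26 (Psmg4) to 15.1 (Psmg2). Psmf1, the inhibitor PI31, stood at 3.50. The inducible genes Psmb8, Psmb9 and Psmb10 stood at 2.21, 1.90 and 12.9 per kilobase. Psma8, which replaces Psma7 in the testis, had 0 or 1 read in each library. Among activators Psme4, encoding PA200, was the most abundant at 72.3, above Psme3 at 36.2, Psme1 at 26.2, Psme2 at 12.9 and Psme2b at 10.9. Psme2 and Psme2b share 99.3% of 717 aligned bases, so the division of reads between them is uncertain. In all, 17 of the 49 genes have a near-identical copy, mostly processed pseudogenes, and 15 share exon bases with another gene, 4 of them on the same strand.

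**Figure D2:**
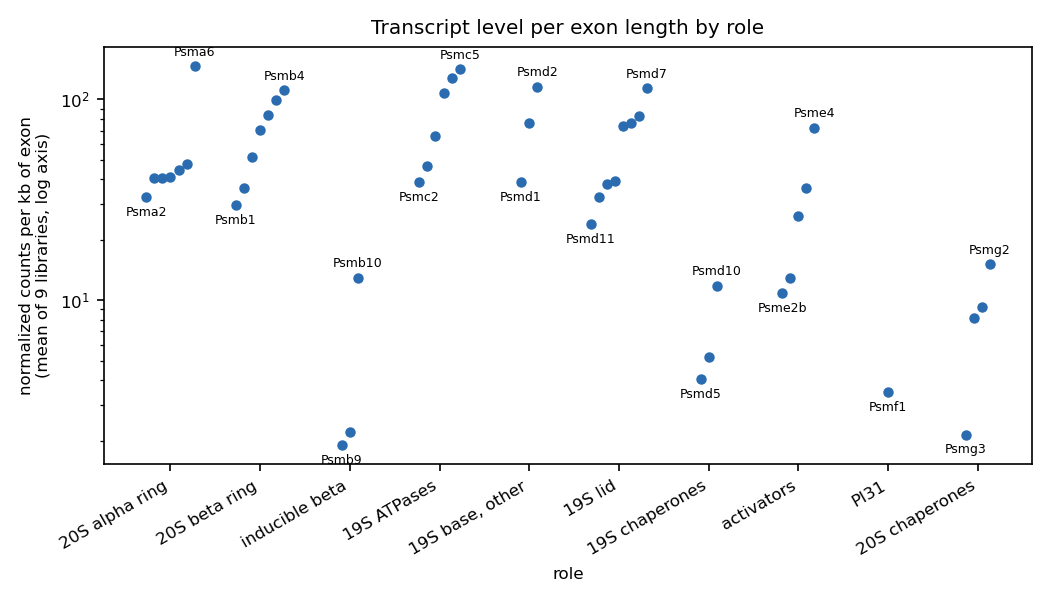
Level of proteasome genes in normalized counts per kilobase of exon (mean of 9 libraries, log axis) by role, each point 1 gene, with the highest and lowest gene of each role named. Psma8 (0.088 per kilobase) and Psmc3ip are left out, and the chaperones, PI31 and the inducible beta genes lie below the subunits of the 20S and 19S particles.

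To find which of these transcripts respond to the androgen, ORX+DHT and ORX muscle were tested against each other with limma. Psmd8, which encodes Rpn12, a lid subunit needed for joining the lid to the base, was higher in ORX+DHT muscle, and no other proteasome gene passed. It was 1 of 41 proteasome genes tested, beside 358 of all 8770 genes tested, or 4.08%, and 209 of all genes called higher, or 2.38%. The share of proteasome genes called was thus near that of all genes. The orchiectomy and replacement contrasts called 0 of 42 proteasome genes each, where 5 of 8631 genes passed in the former, or 0.0579%, and 3 of 8595 in the latter, or 0.0349%. Below an unadjusted limma p of 0.05 lay 1 proteasome gene in the orchiectomy contrast (Psmd8, beside 7.21% of all genes), 2 in the androgen contrast (Psmd8 and Psme4, beside 14.3%) and 1 in the replacement contrast (Psmb5, beside 6.48%). In the orchiectomy and replacement contrasts edgeR and DESeq2 also called 0 proteasome genes.

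Psmd8 (ENSMUSG00000030591, chr7:29174188-29180701, minus strand) stood at 423, 227 and 196 in control, 162, 154 and 175 in ORX and 302, 342 and 292 in ORX+DHT muscle. All 3 ORX+DHT libraries lay above all 3 ORX libraries, and the groups did not overlap. The mean was 164 ± 10.2 in ORX and 312 ± 26.4 with the androgen (SD, n = 3). Its fold change was 0.93 (SE 0.10, 95% interval 0.71 to 1.14, limma adjusted p 1.04e-05). By p it ranked 43 of 8770 genes, and by size 60 of the 209 genes called higher. The call was also made by edgeR (adjusted p 6.78e-06) and DESeq2 (adjusted p 1.5e-08), under TMM scaling and quantile normalization, and without each of the 6 libraries in turn, where the fold change ran from 0.86 to 0.97 and the highest limma adjusted p was 0.000186. With all 9 libraries in 1 fit, which takes its spread from the controls too, the fold change was the same and the limma adjusted p was 0.0508, so that the call was lost.

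In control muscle Psmd8 had the largest SD of the lid genes. Its controls averaged 282 ± 123 (SD, n = 3), and control 1 alone lay above every ORX+DHT library. Each ORX library lay below each control. The orchiectomy contrast gave -0.70 (SE 0.24), with an unadjusted limma p of 0.0151 and a limma adjusted p of 0.669, so it did not pass. Without control 1 it was -0.36 (limma adjusted p 0.262). The replacement contrast gave 0.23 (SE 0.24, limma adjusted p 0.841). Without control 1 that difference was 0.56 and passed (limma adjusted p 0.0204): controls 2 and 3 lay below all 3 ORX+DHT libraries and above all 3 ORX libraries. By group mean, ORX was lowest and ORX+DHT highest, and the libraries of control and ORX+DHT overlapped through control 1 alone. The orchiectomy and androgen contrasts share the ORX libraries, so the same 3 values enter both fold changes.

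None of the other 7 lid genes passed. As a share of their sum, Psmd8 made up 26.2, 18.8 and 16.8 in control, 14.1, 13.2 and 13.6 in ORX and 26.6, 30.1 and 23.3 in ORX+DHT muscle (percent, given without a test). Their fold changes in the androgen contrast lay between -0.21 and 0.032. Every 95% interval lay inside a 1.5-fold change either way, beside those of 4280 of all 8770 genes. Psmd14, for the deubiquitinase Rpn11, had the lowest of these 7 fold changes. It stood at 129.9, 91.8 and 85.4 in control, 89.3, 94.7 and 92.6 in ORX and 77.01, 67.7 and 96.8 in ORX+DHT muscle, and the groups overlapped (limma adjusted p 0.554). Psmd13, for Rpn9, stood at 196, 127 and 130.1 in control, 129.6, 111 and 119.9 in ORX and 112, 111 and 115 in ORX+DHT muscle. Its ORX+DHT libraries lay below all controls but overlapped with ORX, and the replacement contrast was -0.39 (limma adjusted p 0.736), or -0.19 without control 1. The lid genes Psmd3, Psmd6, Psmd7, Psmd11 and Psmd12 ran in the orchiectomy contrast from -0.16 (Psmd7) to 0.083 (Psmd11), and none passed. Without control 1 they ran from -0.045 (Psmd3) to 0.11 (Psmd11). In the replacement contrast the value of Psmd11 was 0.077, or 0.11 without control 1.

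**Figure D3:**
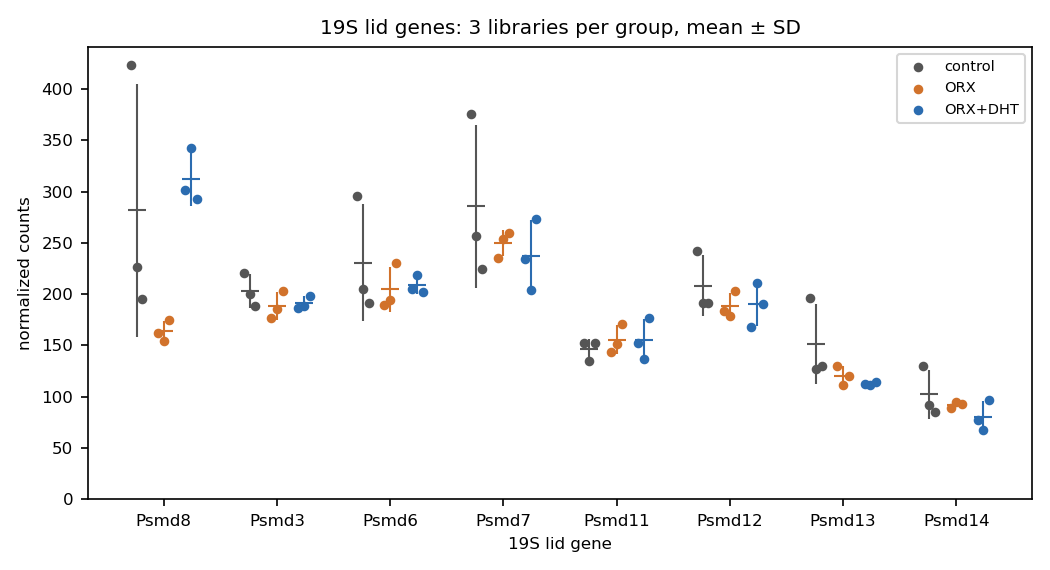
Normalized counts (vertical axis) of the 8 lid genes of the 19S particle in control, ORX and ORX+DHT muscle, each point 1 library, with the mean and SD of 3 libraries. For Psmd8 the 3 ORX+DHT libraries (292 to 342) lie above the 3 ORX libraries (154 to 175), and control 1 lies above the rest at 423, while for the other genes ORX and ORX+DHT libraries overlap.

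The tested genes beside Psmd8 on the chromosome were not called. Within 100 kb of it the annotation holds 10 protein-coding genes, a set chosen after the result was seen, and 2 were abundant enough to be tested in the androgen contrast. Ryr1, for the calcium release channel of muscle, had a fold change of -0.082 (limma adjusted p 0.871) and Yif1b one of -0.072 (limma adjusted p 0.951). Fam98c, 17954 bases from Psmd8 on the same strand, was too scarce for a test. Its mean was lowest in ORX, at 5.05 (SD 0.88), beside 9.1 (SD 2.66) for the controls and 9.59 (SD 2.45) with the androgen. Whether its level moved with that of Psmd8 was thus not tested. Kcnk6, also too scarce, had group means from 5.08 to 5.24. A processed pseudogene, Gm14013, matches Psmd8 over 270 bases at 94.8% identity, so some reads could be shared with it.

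Promoter sequence is shown for Psmd8, as the gene that passed, and for Psmb5, as the catalytic gene whose window held matches to both an androgen-type hexamer and an antioxidant response element. The bases are from RefSeq windows of 250 bases before to 50 after the start, trimmed to the part outside all annotated exons, on GRCm38.p6. Psmd8 covers chr7:29180702-29180923 and Psmb5 chr14:54618023-54618245, both on the minus strand and written 5′ to 3′. Capitals mark the matches, AGAACA and TGACNNNGC, and the Psmd8 sequence holds none.
Psmd8: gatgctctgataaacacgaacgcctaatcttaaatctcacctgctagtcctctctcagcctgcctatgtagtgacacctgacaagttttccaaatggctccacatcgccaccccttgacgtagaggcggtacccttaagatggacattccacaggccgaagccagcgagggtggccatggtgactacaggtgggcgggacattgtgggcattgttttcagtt
Psmb5: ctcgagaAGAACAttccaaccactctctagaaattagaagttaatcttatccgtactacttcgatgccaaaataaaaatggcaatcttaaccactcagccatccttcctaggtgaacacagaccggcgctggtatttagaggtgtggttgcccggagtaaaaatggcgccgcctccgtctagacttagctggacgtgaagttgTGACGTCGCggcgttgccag
The full windows of 41 of the 49 genes could be searched on both strands for 4 motifs, beside 27025 genes in all. The palindromic androgen response element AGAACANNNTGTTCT was in 0 of 41, and in 0.0111% of all genes. The hexamer AGAACA, which that element contains on both strands, was in 7 of 41 (17.1%, against 21.3% of all genes). The antioxidant response element TGACNNNGC, bound by NRF1 and NRF2, was in 6 (14.6%, against 13.99%): Psmb5, Psmb6, Psmc6, Psmd9, Psmd12 and Psme4. The CCAAT box was in 14 (34.1%, against 41.1%). These are matches of letters in short windows, and the shares of proteasome genes lay near or below those of all genes.

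In the 20S core no gene was called, and the intervals of the androgen contrast were narrow. Summed over its 15 alpha and standard beta genes, normalized counts were 2741, 1745 and 1769 in control, 1599, 1759 and 1776 in ORX and 1666, 1728 and 1781 in ORX+DHT muscle. Control 1 stood above the other 8 libraries, which overlapped throughout. The 7 alpha genes tested ran in that contrast from -0.13 (Psma5) to 0.11 (Psma4), 4 below 0 and 3 above. The 7 beta genes ran from -0.23 (Psmb5) to 0.15 (Psmb3), 2 below and 5 above 0. Every 95% interval of these 14 genes lay inside a 1.5-fold change either way, beside those of 4280 of all 8770 genes, and 0 were called.

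Of the catalytic genes, Psmb5 (ENSMUSG00000022193, chr14:54614119-54618022, minus strand), whose product carries the chymotrypsin-like site, stood at 122, 86.2 and 71.5 in control, 77.5, 70.8 and 67.8 in ORX and 56.7, 65.7 and 61.3 in ORX+DHT muscle. Its 3 ORX+DHT libraries lay below all 3 ORX libraries and all 3 controls. The androgen contrast was -0.23 (limma adjusted p 0.491) and the replacement contrast -0.57 (SE 0.21, unadjusted limma p 0.0196, limma adjusted p 0.736), so neither passed. Without control 1 the latter was -0.36. Its pseudogenes match it closely, Gm3375 at 98.9% of 793 bases and Psmb5-ps at 91.9% of 807. Psmb6, for the caspase-like site, stood at 333, 175 and 163 in control, 141, 183 and 172 in ORX and 168, 178 and 169 in ORX+DHT muscle, and the groups overlapped. Psmb7, for the trypsin-like site, stood at 209.8, 184 and 192 in control, 149, 177 and 167 in ORX and 157, 183 and 164 in ORX+DHT muscle. Its controls lay above all ORX and all ORX+DHT libraries, but neither the orchiectomy contrast, at -0.25 (limma adjusted p 0.746), nor the replacement contrast, at -0.22 (limma adjusted p 0.755), passed, and without control 1 they were -0.19 and -0.16.

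In the orchiectomy contrast the core genes mostly lay below 0: 6 of 7 alpha genes and 7 of 7 beta genes, with 0 called. Psmb6 had the lowest value of the standard core genes, -0.36, followed by Psmb5 (-0.34), Psmb4 (-0.33) and Psma4 (-0.33), at limma adjusted p of 0.766, 0.75, 0.747 and 0.714. Psma5 was the exception at 0.026. Without control 1 these values were -0.038 (Psmb6), -0.13 (Psmb5), -0.089 (Psmb4), -0.19 (Psma4) and 0.30 (Psma5), so that neither the sizes nor the order held. The lowest was then Psmb7, and 4 of 7 alpha and 4 of 7 beta genes lay below 0.

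The inducible subunits were too scarce for a close comparison. Psmb10 stood at 42.5, 19.9 and 16.9 in control, 21.6, 32.4 and 9.10 in ORX and 17.2, 20.3 and 18.8 in ORX+DHT muscle, with the highest value in control 1 and the lowest in ORX 3. The groups overlapped, and neither the orchiectomy contrast (-0.36, or 0.025 without control 1) nor the androgen contrast (0.0042) passed, the latter with a 95% interval from -0.71 to 0.72. Psmb8 stood at 9.99, 4.42 and 4.97 in control, 8.83, 10.2 and 4.14 in ORX and 8.11, 6.77 and 9.88 in ORX+DHT muscle. Psmb9 stood at 3.75, 3.32 and 10.9 in control, 5.89, 12.8 and 7.44 in ORX and 3.04, 10.6 and 4.94 in ORX+DHT muscle, and its exons overlap those of Tap1 on the other strand. Neither reached a mean of 10, so neither was tested. Per kilobase, the 3 inducible genes made up 7.14, 5.41 and 6.06 in control, 7.60, 10.1 and 3.82 in ORX and 6.28, 7.05 and 6.90 in ORX+DHT muscle of all 6 catalytic genes (percent, without a test), and the groups overlapped. The size of this share depends on the annotated exon lengths, 1.705 to 3.66 kb for the inducible and 0.899 to 3.421 kb for the standard catalytic genes. The 10 leukocyte markers, summed, stood between 95.1 and 191 in control, 140 and 201 in ORX and 144 and 214 in ORX+DHT libraries. Markers too scarce for a test had no common direction. Itgam, at most 2.03 in any library, was at 0 in the 3 controls and above 0 in the 6 other libraries. Coro1a was highest in control, at a mean of 6.79, beside 2.196 for ORX and 3.97 for ORX+DHT. Adgre1 was highest in ORX, at 5.82, beside 2.97 for control and 2.96 for ORX+DHT. Group means ran from 2.64 to 2.81 for Ptprc. The 5 leukocyte markers tested all lay above 0 in the orchiectomy contrast (median 0.54) and in the replacement contrast (median 0.58), with 0 called. Leukocytes express the inducible subunits, and the part of these cells in the inducible values was not tested. In whole muscle, fewer cells of a type and less RNA per cell cannot be told apart.

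The 6 ATPase genes of the 19S base, Psmc1 to Psmc6, lay below 0 in all 3 contrasts, and none passed. In the androgen contrast they ran from -0.21 (Psmc3) to -0.065 (Psmc5), with a median of -0.11. All 6 were also below 0 there under TMM scaling and quantile normalization, and 5 of 6 without ORX replicate 3 or ORX+DHT replicate 2. Psmc3 stood at 497, 317 and 294 in control, 300.4, 344 and 377 in ORX and 269.5, 293 and 315 in ORX+DHT muscle. Of the ORX+DHT libraries, 1 reached into the range of ORX, and the unadjusted limma p was 0.0504 (limma adjusted p 0.351). Psmc5 stood at 295, 211 and 189.7 in control, 169.8, 177 and 205 in ORX and 186, 166 and 174 in ORX+DHT muscle. Its ORX+DHT libraries lay below all controls, at -0.38 in the replacement contrast (limma adjusted p 0.736), or -0.19 without control 1. In the orchiectomy contrast all 6 were below 0 over the 3 controls, 5 of 6 under TMM scaling, 4 of 6 after quantile normalization and 2 of 6 without control 1. In the replacement contrast the median was -0.27 over the 3 controls. Without control 1 it was -0.062, with 5 of 6 below 0. The 3 contrasts share libraries, so their directions are not independent.

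Of the other base genes, Psmd2 differed from most proteasome genes in its controls. It stood at 353, 499 and 454 in control, 484, 515 and 505 in ORX and 471, 462 and 457 in ORX+DHT muscle, and control 1 was the lowest of the 9 libraries instead of the highest. Its ORX+DHT libraries lay below all ORX libraries, at -0.11 (limma adjusted p 0.584). Its orchiectomy contrast was 0.22 (limma adjusted p 0.777), or 0.075 without control 1, and its replacement contrast 0.11, which turned to -0.037 without control 1. Psmd1 stood at 275, 291 and 288 in control, 259, 309.6 and 289 in ORX and 247, 252 and 318 in ORX+DHT muscle and Psmd4, for the ubiquitin receptor Rpn10, at 279.7, 192 and 191 in control, 188, 197 and 219 in ORX and 207, 209 and 235 in ORX+DHT muscle. The groups overlapped for both. Summed over the 16 genes of the 19S particle without Psmd8, the counts were 4274, 3435 and 3209 in control, 3207, 3420.1 and 3630.5 in ORX and 3192, 3114 and 3447 in ORX+DHT muscle, with ORX and ORX+DHT libraries overlapping.

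**Figure D4:**
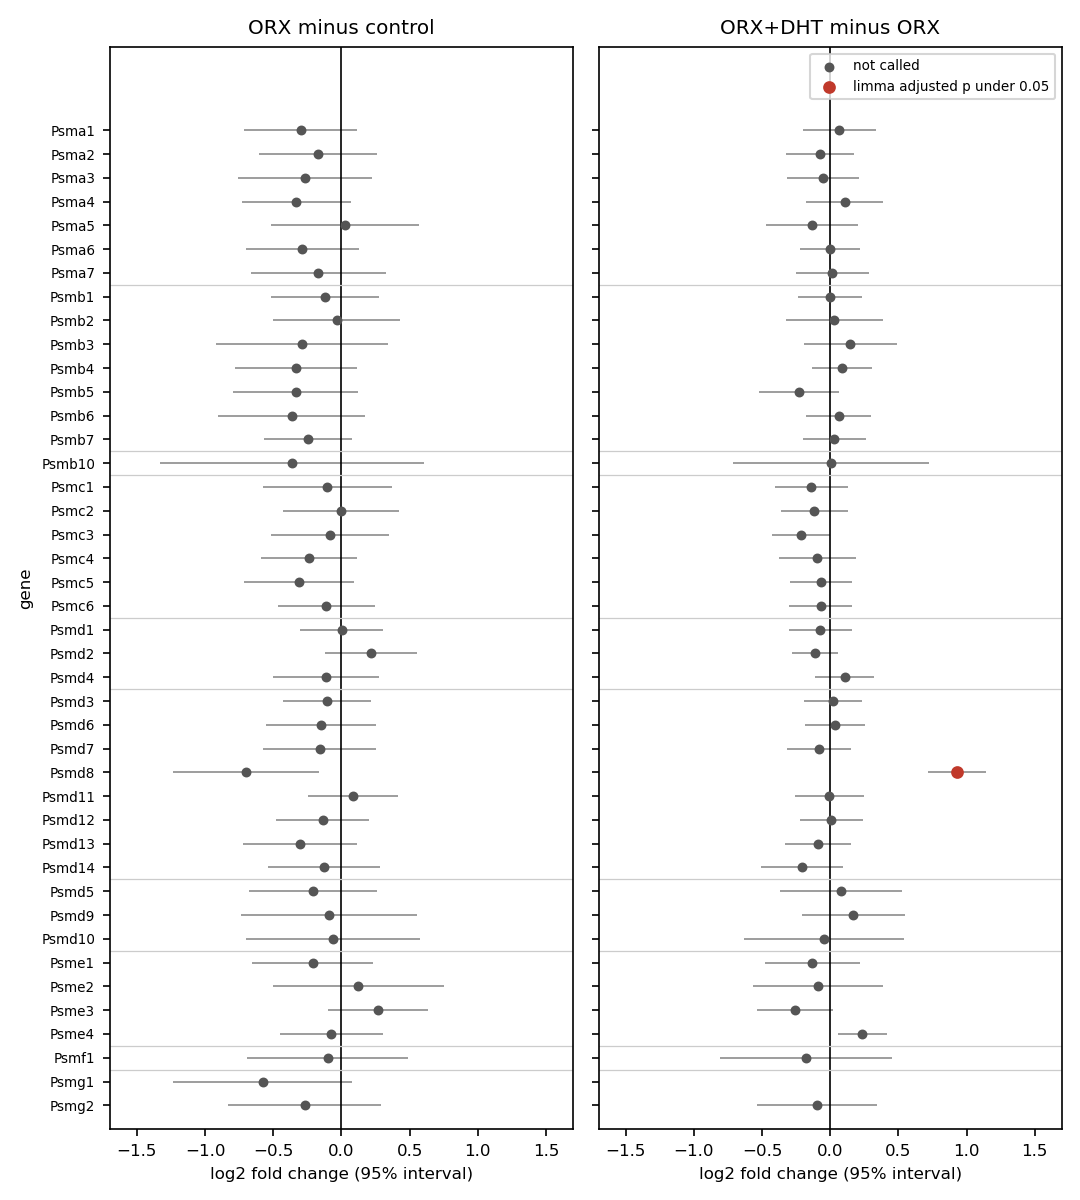
Log2 fold change of each tested proteasome gene (point) with its 95% interval (line) in ORX minus control (left, 42 genes) and ORX+DHT minus ORX (right, 41 genes, Psmg1 not tested), ordered by role. Psmd8 (red, 0.93) was the only gene called, and the intervals on the left are wider, with 36 of 42 points below 0.

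Chaperone genes showed no called difference. Among those of 19S assembly, Psmd5 stood at 36.2, 27.6 and 30.8 in control, 25.5, 29.00 and 26.5 in ORX and 25.3, 25.1 and 36.6 in ORX+DHT muscle, Psmd9 at 62.4, 26.5 and 29.8 in control, 31.4, 34.97 and 37.2 in ORX and 42.6, 34.8 and 39.5 in ORX+DHT muscle and Psmd10 (gankyrin) at 21.2, 13.3 and 19.9 in control, 15.7, 22.2 and 14.1 in ORX and 12.2, 18.4 and 19.8 in ORX+DHT muscle. The groups overlapped for each, and the androgen contrast was 0.081, 0.17 and -0.047. For Psmd9, control 1 was the highest library, as for most subunits, and the replacement contrast was 0.078, or 0.45 without control 1. Among the 20S chaperones, which pair and align alpha subunits, 2 were tested against control. Psmg1 lay further from control than Psmg2. It stood at 14.98, 15.5 and 13.9 in control, 9.82, 7.68 and 11.6 in ORX and 8.11, 14.5 and 2.96 in ORX+DHT muscle. Its ORX libraries lay below all controls, at -0.58 in the orchiectomy contrast (limma adjusted p 0.695), or -0.57 without control 1. The ORX+DHT libraries spread from below to above ORX, at -0.94 in the replacement contrast (limma adjusted p 0.736), or -0.93 without control 1. It had 3 to 15 reads per library, and its mean in ORX and ORX+DHT was too low for a test. Psmg2 stood at 41.2, 29.9 and 21.8 in control, 25.5, 23.9 and 24.8 in ORX and 23.3, 22.2 and 23.7 in ORX+DHT muscle, where ORX+DHT lay just below ORX (androgen contrast -0.10, limma adjusted p 0.887). Psmg3 and Psmg4 had 2 to 9 reads per library and were not tested. Psmg4 stood at 6.24, 5.53 and 6.95 in control, 4.91, 5.12 and 1.65 in ORX and 5.07, 4.83 and 5.93 in ORX+DHT muscle. Its ORX libraries lay below all controls, while the groups of Psmg3 overlapped.

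Activator genes lay on both sides of 0, and none passed. Psme4 (ENSMUSG00000040850, chr11:30771726-30880361, plus strand) stood at 464, 737 and 594 in control, 576, 585 and 519 in ORX and 653, 618 and 705 in ORX+DHT muscle. Its 3 ORX+DHT libraries lay above the 3 ORX libraries, and the controls spanned both. The androgen contrast was 0.23 (SE 0.086, unadjusted limma p 0.0142, limma adjusted p 0.179), so it did not pass, and it was 0.14 after quantile normalization. In the replacement contrast Psme4 was at 0.16, or -0.0091 without control 1. Psme3, for the nuclear activator PA28-gamma, stood at 91.1, 106 and 101 in control, 109.9, 141 and 112 in ORX and 111, 95.7 and 93.9 in ORX+DHT muscle. Its ORX libraries lay above all controls and overlapped with ORX+DHT, at 0.27 in the orchiectomy contrast (limma adjusted p 0.75), or 0.21 without control 1. Its androgen contrast, -0.26 (limma adjusted p 0.383), was the lowest among proteasome genes. Per kilobase, the ratio of Psme4 to Psme3 was 1.79, 2.44 and 2.06 in control, 1.84, 1.46 and 1.63 in ORX and 2.06, 2.27 and 2.64 in ORX+DHT muscle, without a test and with a pair of genes chosen after their values were seen. Psme1 and Psme2, the interferon-induced pair PA28-alpha and PA28-beta, stood at 82.4, 60.8 and 54.6 in control, 56.9, 50.3 and 61.2 in ORX and 56.7, 55.1 and 42.5 in ORX+DHT muscle, and at 29.97, 22.1 and 14.9 in control, 20.6, 28.1 and 22.3 in ORX and 22.3, 24.2 and 19.8 in ORX+DHT muscle. Their groups overlapped in each contrast, and Psme2 was at 0.12 in the orchiectomy contrast, or 0.35 without control 1. Psmf1 stood at 17.5, 28.7 and 26.8 in control, 18.7, 21.3 and 27.3 in ORX and 30.4, 11.6 and 20.7 in ORX+DHT muscle and varied more within ORX+DHT than between groups, at -0.10 in the orchiectomy contrast, or -0.31 without control 1, and -0.18 in the androgen contrast.

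**Figure D5:**
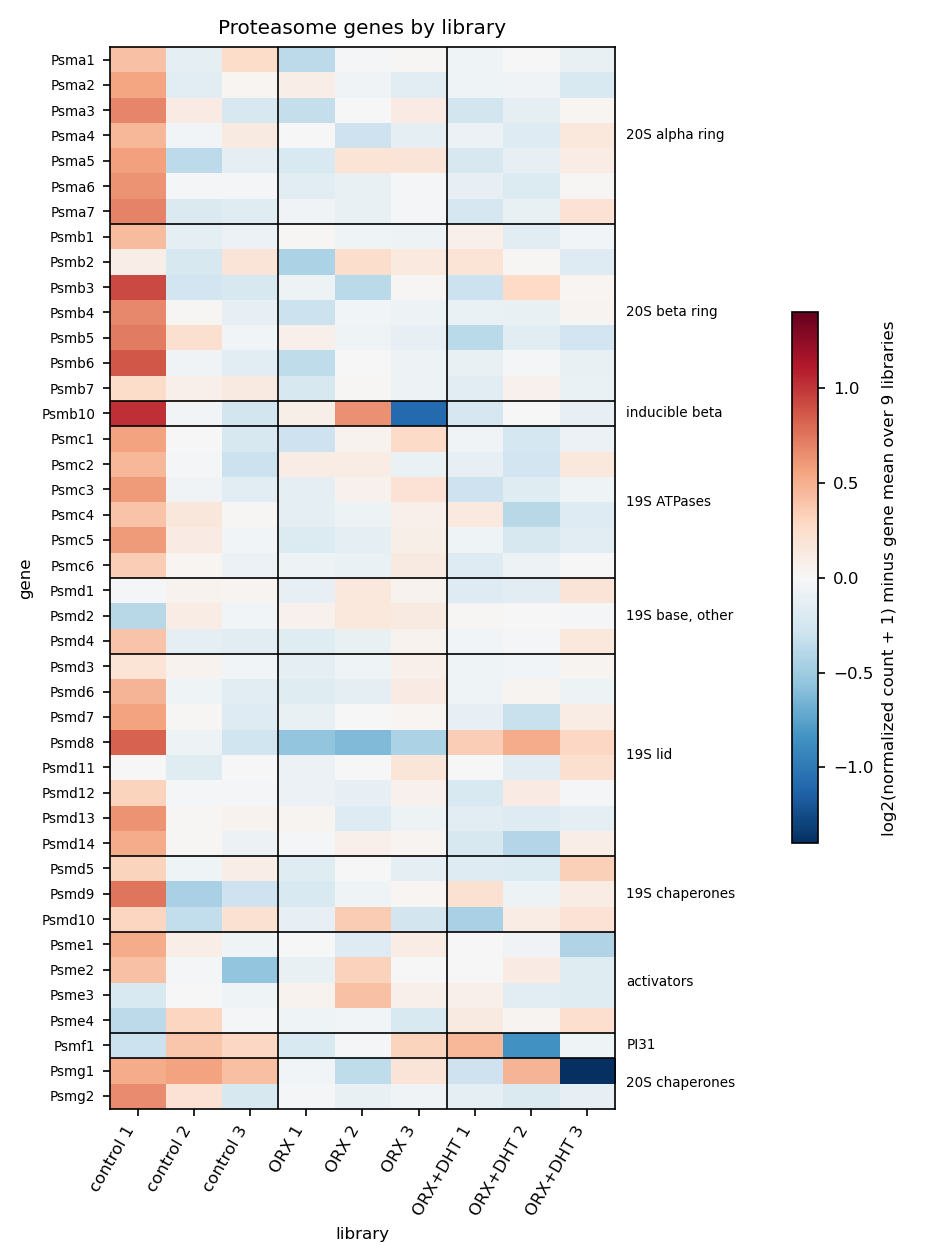
Heat map of the 42 proteasome genes with a mean of at least 10, by role (rows), in the 9 libraries (columns), coloured by log2(normalized count + 1) minus the gene's mean over the libraries. Control 1 is the highest of all libraries for 32 genes, and Psmd8 is the row in which the 3 ORX libraries are low and the 3 ORX+DHT libraries high.

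Counted over all tested proteasome genes, 36 of 42 were below 0 in the orchiectomy contrast, with a median of -0.16, beside 51.1% of all genes and a median of -0.0077. Under TMM scaling it was 35 and after quantile normalization 32. Without control 1 it was 21 of 42, beside 52.7% of all genes, with a median of -0.0072. In the androgen contrast 24 of 41 were below 0, with a median of -0.047, beside 49.2% of all genes and a median of 0.0062. In the replacement contrast these numbers were 35 of 42 and -0.20, beside 50.7% of all genes, and 27 of 42 and -0.029 without control 1, beside 51.1%. Differences were bounded best in the androgen contrast, which uses no control library. There the 95% interval lay inside a 1.5-fold change either way for 37 of 41 genes, beside 4280 of all 8770 genes. The exceptions were Psmd8, Psmb10, Psmd10 and Psmf1. In the orchiectomy contrast it did so for 18 of 42, and inside a 2-fold change for 39, beside 2475 and 6953 of all 8631 genes. In the androgen contrast 5 of 41 genes had ORX and ORX+DHT libraries wholly apart (Psmd8 and Psme4 higher, Psmb5, Psmd2 and Psmg2 lower), beside 19.5% of all genes. The same held for 4 of 42 in the orchiectomy contrast (14.3% of all genes) and 4 of 42 in the replacement contrast (14%).

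The wider ubiquitin-proteasome pathway was followed with 5 lists, of proteasome partners outside the name rule, factors that transcribe proteasome genes, ubiquitin and its activation, shuttle factors, and muscle ubiquitin ligases. Of their 43 listed genes, 42 were tested in each comparison, and 0 were called, with 4, 9 and 4 below an unadjusted p of 0.05 in the orchiectomy, androgen and replacement contrasts, beside 7.21%, 14.3% and 6.48% of all genes. Nfe2l1, for NRF1, stood at 1078, 1432 and 1400.4 in control, 1299, 1297 and 1195 in ORX and 1534, 1424 and 1525 in ORX+DHT muscle. Every ORX+DHT library lay above every ORX library, at 0.24 (limma adjusted p 0.0951), which did not pass. Ddi2, for the protease that cleaves NRF1 into its active form, lay on the other side of 0. It stood at 52.4, 127 and 108 in control, 156, 132 and 142 in ORX and 113, 106 and 109 in ORX+DHT muscle, with every ORX+DHT library below every ORX library, at -0.38 (limma adjusted p 0.0729), which did not pass either. Of the 7 genes on this list of factors, 5 lay above 0 and 2 below, among them Nfe2l2, a relative of Nfe2l1, at 0.29 (limma adjusted p 0.409) and Nfyb, for a subunit of the CCAAT-binding factor, at -0.37 (limma adjusted p 0.321). The 12 proteasome partners tested ran from -0.58 to 0.26, 6 above 0 and 6 below. Pomp, for the chaperone of 20S maturation, had -0.27, Adrm1, for the ubiquitin receptor Rpn13, 0.24, and Usp14, for a proteasome-bound deubiquitinase, 0.26, and none passed. Ubb, which encodes ubiquitin, had 0.047.

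Of the ligases linked to muscle wasting, Trim63 (MuRF1) stood at 422, 350.5 and 336 in control, 312, 305 and 283 in ORX and 333, 494 and 379 in ORX+DHT muscle. The ORX+DHT libraries lay above all ORX libraries, at 0.40 (SE 0.12, limma adjusted p 0.0703). Every ORX library lay below every control, at -0.29 in the orchiectomy contrast (limma adjusted p 0.695), and the replacement contrast was 0.11 (0.885). Fbxo32 (atrogin-1) stood at 346, 481 and 402 in control, 554, 526 and 499.6 in ORX and 517, 613 and 820.1 in ORX+DHT muscle. Its orchiectomy contrast was 0.37 (limma adjusted p 0.675), its androgen contrast 0.28 (0.304) and its replacement contrast 0.65 (0.675), so neither gene passed. Control 1 was the lowest of the Fbxo32 controls and the highest of the Trim63 controls, and it enters both contrasts against control. A list of 12 genes of class I antigen processing and interferon response, which are often induced together with the inducible subunits, had 0 calls in all 3 contrasts. In the orchiectomy, androgen and replacement contrasts 9, 10 and 10 of them were tested. The medians of those tested were 0.39, 0.035 and 0.30, over all 3 controls, with 2, 4 and 2 genes below 0.

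Some markers of other cells and fibres were called between the same groups as Psmd8. In the androgen contrast the fast-fibre genes Acta1 and Myh1 were called higher, at 0.47 (limma adjusted p 0.00357) and 0.47 (0.00755), as 2 of 8 on that list, beside 2.38% of all genes called higher. With all 9 libraries in 1 fit both calls were lost (limma adjusted p 0.418 and 0.263), that of Acta1 also without ORX replicate 2 (0.0524) and that of Myh1 after quantile normalization, at 0.22 (0.158). Of the 8 fast-fibre genes 3 lay below 0 and were not called: Pvalb at -0.28 (limma adjusted p 0.154), Actn3 at -0.16 and Myh4 at -0.083. Of 6 fibroblast markers, Col1a1, Col1a2 and Lum were called lower, at -1.18, -1.004 and -1.79 (limma adjusted p 2.89e-06, 7.02e-06 and 4.81e-06), and Pdgfra, Dcn and Col3a1 were not called. Over all genes, 149 of 8770 tested were called lower. Among the leukocyte, endothelial, adipocyte and erythroid lists 0 genes were called. The part of these cells in the Psmd8 value was not tested.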

How the data were processed

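Polyadenylated RNA was sequenced from directional libraries, per the labels' protocols. Trim Galore 0.6.7, HISAT2 2.2.1, featureCounts 2.0.1, DESeq2 1.36.0 and GRCm38 are named in the submitters' processing notes; the annotation release and strand setting are not given in the sources used here. The authors deposited 2 separately scaled tables of normalized counts, a signal: control with ORX (14596 genes) and ORX with ORX+DHT (14675), sharing 14300. Columns headed sham were taken as the control group, the sole group without orchiectomy; 0 columns were unmapped. Every value (100%) was a whole multiple, within 0.001, of 1 step per column, so reads were recovered.

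The first 2 comparisons were fitted within their table. ORX+DHT against control, and all printed values, used the shared genes rescaled over 9 libraries by median-of-ratios factors on 10885 genes. limma 3.58.1 (R 4.3.3, trended eBayes) was run on log2(value + 1), a scale that understates changes of low genes, for means of at least 10, with Benjamini-Hochberg adjustment over all genes; a call is an adjusted p under 0.05. Of 49 proteasome genes, 7 had too low a mean for any fit. The limma p-values weigh each group difference against the spread between these libraries, moderated toward a trend over all genes. edgeR 4.0.16 and DESeq2 1.42.0 were run on recovered reads as alternatives, beside other pseudocounts, filters, scalings, fits and left-out libraries. The fits were tested on simulated data. The labels do not pair libraries by replicate number, and the main fits were unpaired. Correlations of deviations between libraries of the same number ran from -0.165 to 0.151. Between ORX and ORX+DHT alone they ran from 0.061 to 0.151, which does not settle whether those libraries are paired.

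Positions and exon lengths are from GENCODE M21 (GRCm38), promoters from RefSeq (GRCm38.p6). Genes named were every called gene, fixed functional subsets, the highest and lowest per role, and the 5 largest rises and falls per comparison. The genes and lists were chosen with earlier results of these data known.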

Additional observations from a re-analysis of the deposited data

How the results depend on the processing

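Of 1875 fold changes of proteasome genes under alternatives, 1757 kept their direction and their side of the threshold. Of the rest, 116 uncalled values changed sign, none beyond a log2 fold change of 0.48, 1 call was lost and 1 was gained, both of Psmd8, and 0 called values reversed. The number of proteasome genes called in the androgen contrast (ORX+DHT minus ORX) was 1, and 0 with all 9 libraries in 1 fit, where the spread of the controls enters; it was 1 to 1 when single libraries were left out. In the replacement contrast (ORX+DHT minus control) it was 0 to 1, the 1 being Psmd8 without control 1, and in the orchiectomy contrast (ORX minus control) 0 to 0. Over all genes, the orchiectomy contrast called 5 genes, 28 with DESeq2, 23 with all 9 libraries in 1 fit, 16 with no filter on low genes, and 1 to 51 with a library left out (51 without control 1, 21 without control 3, 1 or 2 without an ORX library). The androgen contrast called 358, 221 with DESeq2, 124 with all 9 libraries in 1 fit, and 223 to 350 with a library left out. The replacement contrast called 3, 13 with DESeq2, 11 with all 9 libraries in 1 fit, 21 with no filter, 6 after quantile normalization, and 0 to 66 with a library left out (66 without control 1). The cause was not tested beyond the construction of these fits. With the replicate number as a replicate block, the androgen contrast called 571 genes, and the other comparisons 5 and 3; the numbers do not pair the libraries by the labels. Each ORX library correlated best with the ORX+DHT library of its own number (0.063, 0.061 and 0.151), a hint from the data alone, while controls did not. Under the block Psmd8 was still called. Outside the proteasome genes, Trim63 passed with the block (0.00574, limma adjusted p) and when ORX+DHT replicate 1 was left out (0.0259), and Nfe2l1 with the block (0.0177) and after quantile normalization (0.0433). Acta1 and Myh1 lost their calls with all 9 libraries in 1 fit (0.418 and 0.263), Acta1 also without ORX replicate 2 (0.0524) and Myh1 after quantile normalization (0.158). Depth limits what can be said of Psma8, Psmb8, Psmb9, Psme2b, Psmg1, Psmg3 and Psmg4, which had at most 15 reads in any library.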
